A study of Mus musculus with 18 samples.

Results

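The genes described here encode the proteins of the cytosolic ribosome. They were taken from the gene names in the scanner files: Rpsa, every name that starts with Rpl or Rps and a digit, and the names that start with Rplp. The S6 kinases (Rps6k names), names ending in l1 and names holding -ps were left out, 12 names in all. This gave 80 names of 27845 on the array, of which 79 were measured among the 17280 genes tested. Rpl3l, a muscle paralogue of Rpl3, was on the array and did not pass the filter on dim probes. The names fall into 31 of the small subunit (Rps and Rpsa), 42 of the large subunit (Rpl), 3 of the stalk (Rplp0, Rplp1 and Rplp2), and 3 others, Rps27l, Rpl36al and Rps19bp1. Rps19bp1 encodes a binding partner of the Rps19 protein and no subunit of the ribosome, so the rule took it in by name alone.

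Livers came from 18 male CD-1 mice, an outbred stock, aged 9 weeks, 6 in each group. All ate the same powdered diet for 28 days, formulated to supply bisphenol A at 0 µg/kg/day in controls, at 50 µg/kg/day in the low-dose group or at 5000 µg/kg/day in the high-dose group. Bisphenol A is a food contaminant that can bind oestrogen receptors. Total RNA from a piece of the large lobe was labelled with Cy3, with 1 mouse per array, and the design asks which liver transcripts differ between the doses and control.

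Ribosomal proteins and ribosomal RNA are made in matched amounts, and much of a cell's transcription and translation goes into them. Most of their messenger RNAs begin with a 5′ terminal oligopyrimidine (TOP) tract, a C followed by a run of C and T bases, through which the mTOR kinase and the LARP1 protein control their translation and stability. In liver, feeding raises the translation of these transcripts through mTOR, and hepatocytes are the main protein-making cells of the tissue.

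Levels are log2 spot intensities minus the log2 75th percentile of their own array, for the brightest probe of each gene. Each probe has its own brightness, so a level is compared only with the level of the same gene in other mice. The 75th percentile of intensity ran from 179 to 305 in controls, from 228 to 351 at the low dose and from 265 to 354 at the high dose, so dosed livers gave brighter arrays on the whole. The arrays shared 5 slides, of which 4 held control and dosed livers. Of 79 ribosomal protein genes, 9 had a saturated probe on at least 1 array and the counts for the whole family in each comparison are given with and without them. Later counts include them. Values lost to spot flags left 68 genes with all 18 values and 11 with fewer. Of the hepatocyte markers, 8 were measured, with a mean level per mouse of 5.85 to 6.21 at the high dose and 5.93 to 6.50 in controls. In whole liver, fewer cells of a type and less RNA per cell cannot be told apart.

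The start of the transcript is shown here because the TOP tract is the feature that the family shares. RefSeq (GRCm38.p6) gave an annotated start for 59 of the 79 genes. A C at the start followed by at least 4 C or T bases was found at an annotated start of 13 of them (22.0%), against 813 of all 27025 genes with a start (3.01%). The windows run 5′ to 3′ on the gene's own strand from 20 bases before the start, 30 bases in all, and capitals mark the tract. Rps6 and Rps10 of the small subunit, Rplp2 of the stalk and Rpl28, Rpl35 and Rpl14 of the large subunit have it.
Rps6 (chr4:86857358-86857387, minus strand): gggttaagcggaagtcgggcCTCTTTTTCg
Rps10 (chr17:27635235-27635264, minus strand): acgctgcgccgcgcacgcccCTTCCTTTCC
Rplp2 (chr7:141447631-141447660, plus strand): cccactgcgtcagcgtcttcCTTTCgccgc
Rpl28 (chr7:4792945-4792974, plus strand): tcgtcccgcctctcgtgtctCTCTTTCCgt
Rpl35 (chr2:39005122-39005151, minus strand): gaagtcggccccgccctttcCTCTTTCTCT
Rpl14 (chr9:120571497-120571526, plus strand): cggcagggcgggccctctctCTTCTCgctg
Rpsa and Rplp0, which had some of the largest differences, have no match at the annotated base.
Rpsa (chr9:120127746-120127775, plus strand): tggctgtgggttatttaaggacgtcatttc
Rplp0 (chr5:115559447-115559476, plus strand): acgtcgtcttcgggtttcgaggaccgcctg
An annotated start can lie some bases from the start used in liver, and no match says only that these letters are not at this base. At the high dose against control, the 13 genes with the tract had a median log2 fold change of -0.13, with 13 lower, and the 46 without it a median of -0.16, with 45 lower. At the low dose the medians were -0.09 and -0.07.

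At the high dose the ribosomal protein genes lay lower than in control livers by a small amount, and none passed the test. Of 79 genes, 75 had a log2 fold change below 0, with a median of -0.15 and a highest value of 0.29; below 0 lay 50.9% of all genes tested, whose median was -0.00. The difference shrank in other settings, to a median of -0.016 with 44 of 79 lower under normexp background correction, and to -0.06 with 57 of 79 lower when array brightness was a covariate. No ribosomal protein gene had an adjusted p under 0.05 (limma, Benjamini-Hochberg over all genes), where 0% of all genes tested did (1199 genes reached an unadjusted p under 0.05), and the smallest adjusted p among them was 0.655. An unadjusted p under 0.05 was reached by 18, all lower, against a background of 3.91% of all genes for lower and 6.94% for either direction. Without the 9 genes with a saturated array, 66 of 70 were lower, with a median of -0.15, and 14 had an unadjusted p under 0.05. The median standard error of a single gene's log2 fold change was 0.11, with a 95% interval of about 0.23 to either side for that gene.

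Low-dose differences were smaller and more mixed. Of 79 genes, 61 had a log2 fold change below 0 with a median of -0.07, against 54.4% of all genes and a median of -0.02, and the direction turned with normexp background correction, where 6 of 79 were lower and the median was 0.28. None passed the adjusted test (smallest adjusted p 0.187), where 0.26% of all genes did, and 9 had an unadjusted p under 0.05, all lower, against 6.57% of all genes lower and 11.6% in either direction. Without the saturated genes, 52 of 70 were below 0, with a median of -0.06, and 5 had an unadjusted p under 0.05.

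High dose against low dose gave 65 of 79 genes lower, with a median of -0.07, whereas all genes had a median of 0.02 and 45.3% lay lower. None passed the adjusted test (smallest adjusted p 0.651; 0.0289% of all genes did, and 0.0232% lower), and 1 gene, Rps26, had an unadjusted p under 0.05 (7.66% of all genes in either direction, 4% lower). Without the saturated genes, 63 of 70 were lower. The 9 saturated genes had 7 higher and a median of 0.04, against 0.02 for the other genes saturated on at least 1 array. Capped signals are not read as a direction here. In the order of group means, 49 of 79 genes had control highest, low dose between and high dose lowest. Of all genes, which are not matched to these in brightness, 15.5% held this order. With normexp background the family's low-dose median lay above both control and the high dose, so the order depends on the processing. The comparisons share samples, so this order is a description of the 3 group means.

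**Figure D1:**
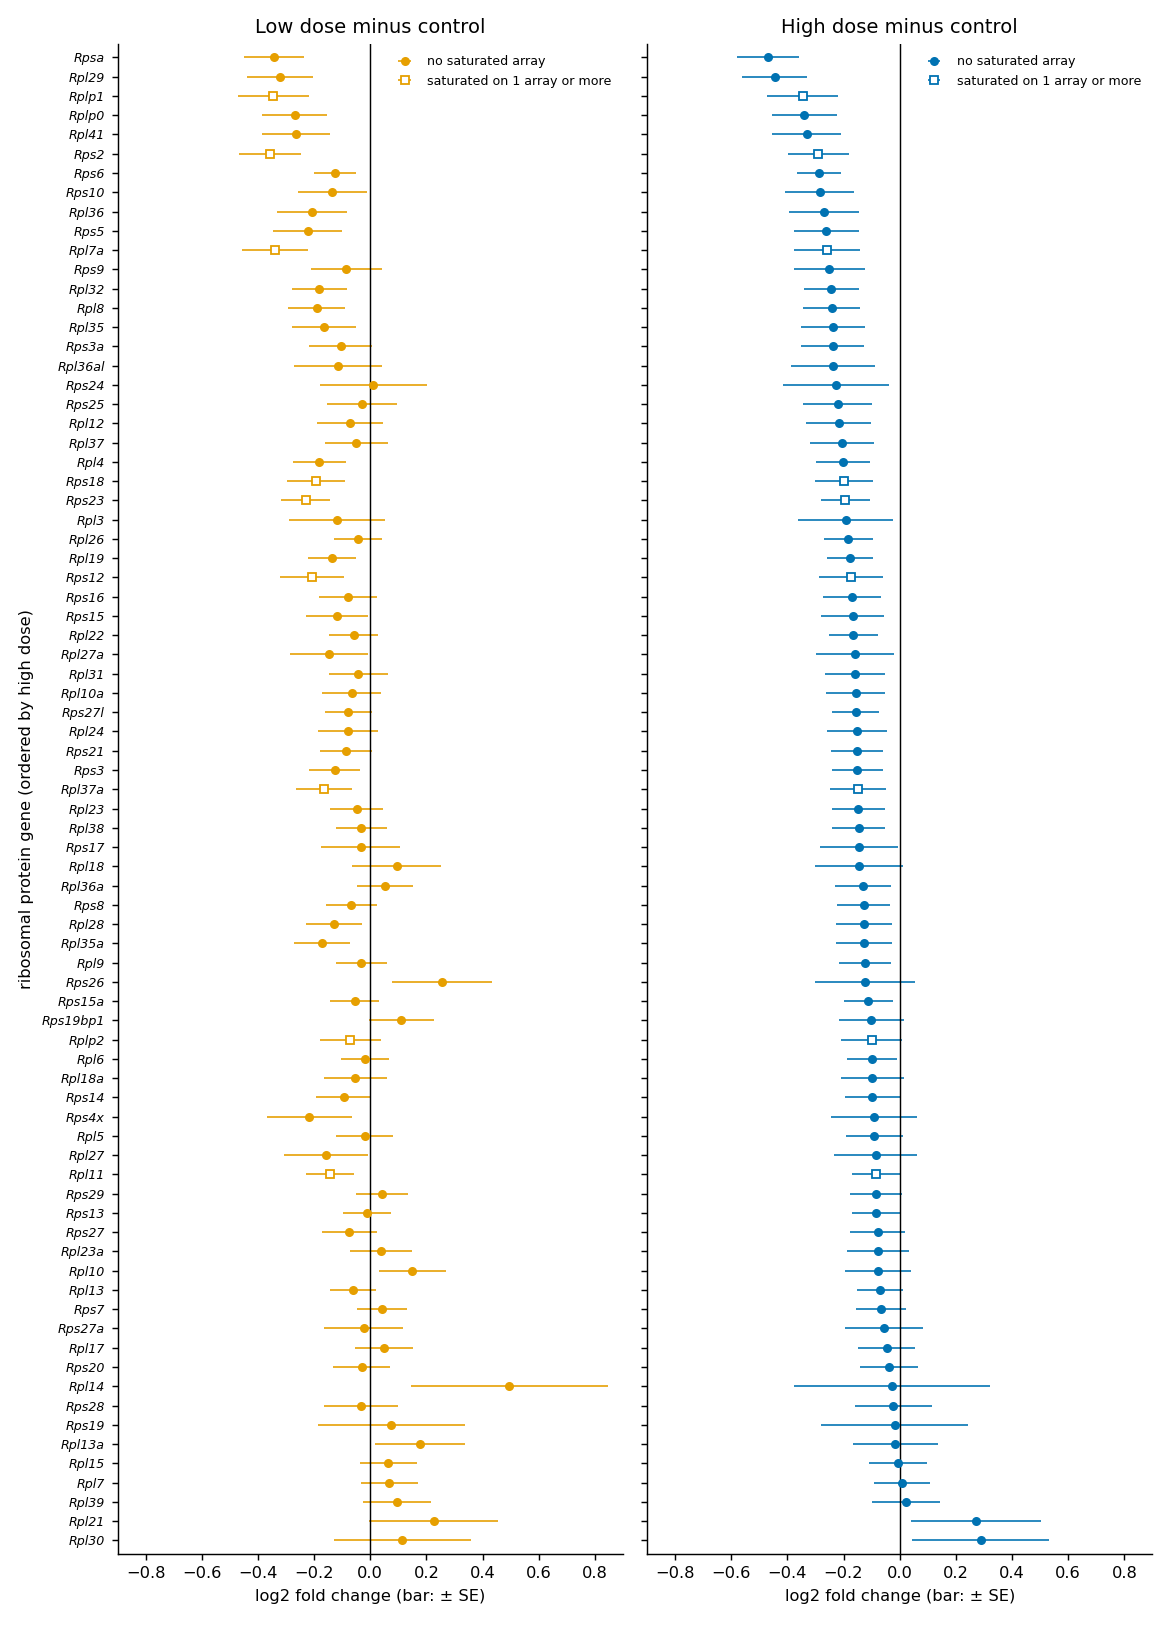
Log2 fold change (x axis, bar ± SE) of 78 of the 79 ribosomal protein genes at the low dose (left) and the high dose (right) against control, with genes ordered by the high-dose value. Of those drawn, 4 lie right of 0 at the high dose and 18 at the low dose, where normexp background turned the median to 0.28; open squares are the 9 genes saturated on at least 1 array, and those of Rps2, Rpl7a, Rplp1 and Rps12 were saturated throughout a group and are not read as folds.

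Mouse by mouse, the median of the genes' deviations from their control means was 0.07, -0.03, 0.05, 0.10, -0.01 and -0.20 in control mice 1 to 6. It was -0.24, 0.11, -0.15, 0.09, -0.07 and -0.17 in low-dose mice 1 to 6, and -0.16, -0.22, -0.14, -0.29, -0.20 and 0.05 in high-dose mice 1 to 6. The groups overlapped: high-dose mouse 6 lay among the higher controls, control mouse 6 lay as low as the dosed mice, and low-dose mice 2 and 4 lay at the top. In high-dose mouse 2, 74 of 78 measured genes were below their control mean, in mouse 1 and mouse 4 72 were, and in mouse 6 29 of 77 were. The group means of this median were -0.00 ± 0.11 in control, -0.07 ± 0.14 in low-dose mice and -0.16 ± 0.12 in high-dose mice (SD, n = 6 each).

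High-dose mouse 6 and control mouse 6 bore on the counts, though the test for outlying mice given at the end did not flag the family median of either. Leaving out high-dose mouse 6 gave a high-dose median of -0.18, with an unadjusted p under 0.05 for 28 ribosomal protein genes and for 8.30% of all genes. Leaving out control mouse 6 gave -0.19, also with 28, and 7.81% of all genes. Other mice moved the count of 18 down. It was 8 without high-dose mouse 4 (6.91% of all genes, median -0.13) and 9 without control mouse 1 (5.42%) or control mouse 4 (4.79%). It was 10 without high-dose mouse 2 (5.68%) or mouse 5 (6.41%), 11 without control mouse 3 (6.79%) and 12 without control mouse 5 (6.92%). None of these fits gave a ribosomal protein gene an adjusted p under 0.05.

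**Figure D2:**
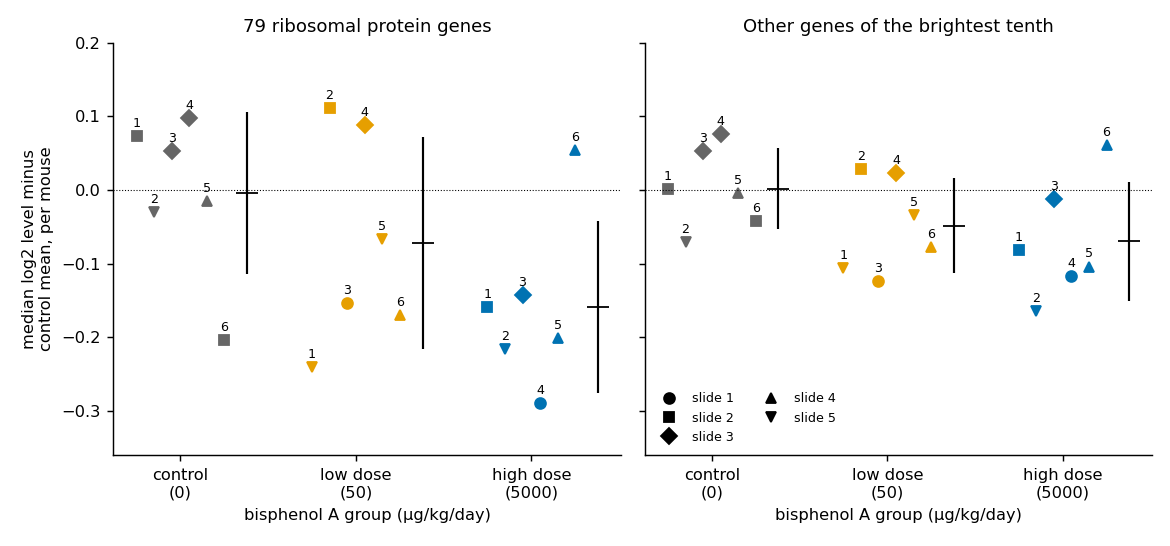
Median log2 level of the 79 ribosomal protein genes (left) and of the other genes among the brightest 10% (right) minus the control mean, 1 point per mouse with its number, by dose (x axis, µg/kg/day); bars show mean ± SD and symbols the slide. Of 6 high-dose mice, 5 lie between -0.29 and -0.14 for the ribosomal protein genes, and mouse 6 lies at 0.05.

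Of the 31 small-subunit genes, 31 were below 0 at the high dose, with a median of -0.15 (normexp moved the median of all 79 to -0.016). An unadjusted p under 0.05 was reached by 8, all lower, against 3.91% of all genes. At the low dose 26 were, with a median of -0.09 (the median of all 79 genes turned to 0.28 with normexp). Rpsa, the laminin receptor precursor that sits on the back of the small subunit, had the smallest p of the family at the high dose. Its probe A_51_P439092 lies at chr9:119977169-119977228 (mm8, the build of the files, for which no annotation was used here). Levels were 4.74, 4.50, 4.71, 4.38 and 4.84 in high-dose mice 1 to 5, with mouse 6 missing, and 5.28, 4.95, 5.08, 5.21, 5.11 and 4.98 in control mice 1 to 6. Every measured high-dose mouse lay below every control, but the missing value belongs to the mouse whose other ribosomal protein genes lay highest in its group. The log2 fold change was -0.47 ± 0.11 (SE; unadjusted p = 0.000638, adjusted p = 0.655 in limma). It was -0.20 with normexp background and -0.25 with array brightness as a covariate. Low-dose levels were 4.57 at the lowest, 4.68 at the median and 5.07 at the highest, which overlapped the controls. The low-dose log2 fold change against control was -0.34 ± 0.11 (adjusted p = 0.197). It fell to -0.009 with normexp background and -0.13 with array brightness as a covariate. High dose against low dose gave -0.13 ± 0.11 (adjusted p = 0.870). A second, dim Rpsa probe gave -0.25 ± 0.65 at the high dose, -1.35 ± 0.65 at the low dose and 1.101 ± 0.654 between the doses, the widest disagreement between probes of a gene in the comparisons with the low dose.

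Rps6, the protein that S6 kinases phosphorylate after mTOR activation, was the other gene with no overlap at the high dose. Its levels were 5.70, 5.62, 5.50, 5.59 and 5.53 in high-dose mice 1 to 5, mouse 6 again missing, and 5.97, 5.89, 5.80, 5.88, 5.98 and 5.72 in control mice 1 to 6. The highest high-dose value, in mouse 1, lay just under the lowest control, mouse 6. The log2 fold change was -0.29 ± 0.08 (adjusted p = 0.655), and it was -0.04 with normexp background. Low-dose levels ran from 5.61 to 5.93 around a median of 5.74, across the range of both other groups, with -0.13 ± 0.08 against control (adjusted p = 0.566; 0.14 with normexp). High dose against low dose gave -0.16 ± 0.08 (adjusted p = 0.675). So 2 of 79 genes did not overlap between high dose and control, both lower, against 0.295% of all genes tested, and both lacked high-dose mouse 6.

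Rps2, a protein at the messenger entry channel, was saturated on 17 of 18 arrays, on all 6 high-dose and all 6 low-dose arrays and on 5 controls, so no fold is given for it although it had the smallest p of the family at the low dose (adjusted p = 0.187). Its second probe, with no saturated array, gave -0.19 ± 0.10 at the high dose and -0.05 ± 0.10 at the low dose. The large low-dose difference of the saturated probe was thus not found on the dimmer one.

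Other small-subunit genes were closer to control. Rps3, which lines the messenger entry channel and also acts in DNA repair, ran from 6.83 to 7.09 around 6.92 at the high dose and from 6.86 to 7.26 around 7.07 in controls, with overlap. Its log2 fold change was -0.15 ± 0.09 at the high dose (adjusted p = 0.782), -0.13 ± 0.09 at the low dose (adjusted p = 0.640; 0.23 with normexp) and -0.02 ± 0.09 between the doses (adjusted p = 0.977). Rps4x, the X-linked form of a small-subunit protein, had -0.09 ± 0.15 at the high dose (adjusted p = 0.938; 0.09 with normexp and 0.02 in the deposited values), -0.22 ± 0.15 at the low dose (adjusted p = 0.640; 0.02 with normexp) and 0.13 ± 0.15 between the doses (adjusted p = 0.922). Its low-dose range of 5.86 to 6.92 enclosed almost all other mice. Its second, dim probe gave 0.58 ± 0.35 at the high dose, the widest disagreement between probes of any gene there.

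Rps19, the gene most often mutated in human Diamond-Blackfan anaemia, varied widely between mice. Its levels were 3.84 to 4.90 around 4.64 in controls, 3.93 to 5.40 around 4.55 in low-dose mice and 3.86 to 5.07 around 4.54 in high-dose mice. The groups lay over each other, and the log2 fold changes were -0.02 ± 0.26 at the high dose (adjusted p = 0.994; above 0 with normexp, quantile normalisation and the deposited values), 0.07 ± 0.26 at the low dose (adjusted p = 0.948) and -0.09 ± 0.26 between the doses (adjusted p = 0.970). A second probe gave -0.42 ± 0.13 at the high dose and -0.35 ± 0.13 at the low dose, neither past the adjusted test.

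Rps26, which lies at the messenger exit channel, was among the highest genes at the low dose, at 0.26 ± 0.18 against control (adjusted p = 0.636). Its levels were 3.83 to 4.50 around 4.18 at the high dose and 3.92 to 5.03 around 4.62 at the low dose, with overlap. The difference between the doses was -0.38 ± 0.18 (unadjusted p = 0.0486, adjusted p = 0.651), and the high dose differed from control by -0.12 ± 0.18 (adjusted p = 0.923).

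**Figure D3:**
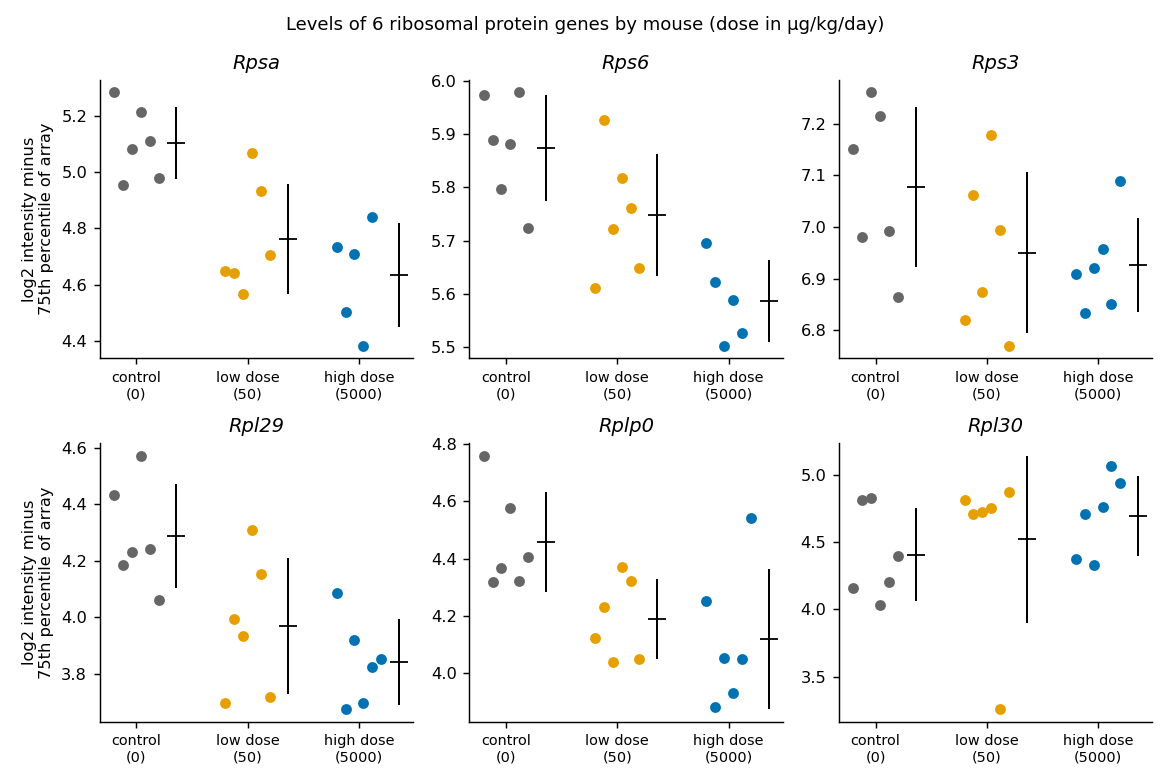
Levels of Rpsa, Rps6, Rps3, Rpl29, Rplp0 and Rpl30 in each mouse (log2, scaled to each array's 75th percentile; y axes differ between genes) by dose, with mean ± SD beside the points. High-dose points of Rpsa and Rps6, which lack mouse 6, lie below all controls; the other 4 genes overlap.

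Of the 42 large-subunit genes, 38 were below 0 at the high dose, with a median of -0.15, and 8 had an unadjusted p under 0.05, all lower, against 3.91% of all genes. At the low dose 30 were, with a median of -0.06 (again opposite in sign with normexp for the family as a whole). Rpl29, a small basic protein at the surface of the large subunit that also binds heparin, had the lowest log2 fold change of this group at the high dose against control. Levels at the high dose were 3.67 at the lowest, 3.84 at the median and 4.09 at the highest, against 4.06, 4.24 and 4.57 in controls. The 2 groups touched only at their ends, with 1 high-dose mouse just above the lowest control. The log2 fold change was -0.45 ± 0.12 (adjusted p = 0.655). It was -0.28 with normexp background and -0.25 with array brightness as a covariate. Low-dose levels of 3.70 to 4.31 around 3.96 overlapped the controls more, with -0.32 ± 0.12 (adjusted p = 0.278), or -0.02 with normexp background. The brightness covariate gave -0.11 at the low dose. The doses differed by -0.13 ± 0.12 (adjusted p = 0.883). Rpl29 had 4 measured probes, and the other 3 gave -0.25, -0.29 and -0.18 at the high dose and -0.26, -0.20 and -0.24 at the low dose.

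Rpl5 and Rpl11 form, with 5S ribosomal RNA, the particle that can bind Mdm2 and stabilise p53. Rpl5 ran from 6.88 to 7.32 around 7.03 at the high dose and from 6.77 to 7.31 around 7.21 in controls, with overlap. Its log2 fold change was -0.09 ± 0.10 at the high dose (adjusted p = 0.889; 0.08 with normexp), -0.02 ± 0.10 at the low dose (adjusted p = 0.965; above 0 with normexp, quantile normalisation and the deposited values) and -0.07 ± 0.10 between the doses (adjusted p = 0.937). Rpl11, saturated on 1 low-dose array, gave -0.08 ± 0.09 at the high dose (adjusted p = 0.876; 0.06 with normexp), -0.14 ± 0.09 at the low dose (adjusted p = 0.564; above 0 with normexp and the deposited values) and 0.06 ± 0.09 between the doses (adjusted p = 0.934; below 0 in the same settings). Neither gene stood apart from the family.

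Rpl3, which reaches the peptidyl transferase centre, kept only 7 of 18 values. Its levels were 6.14 to 6.25 in 3 controls, 6.02 and 6.11 in 2 low-dose mice and 5.80 and 6.17 in 2 high-dose mice. Both low-dose values lay under the 3 controls, the 1 gene of 79 without overlap at that dose, where 1.06% of all genes were lower and 0.729% higher without overlap. The log2 fold changes were -0.19 ± 0.17 at the high dose (adjusted p = 0.862), -0.12 ± 0.17 at the low dose (adjusted p = 0.863; 0.21 with normexp) and -0.08 ± 0.19 between the doses (adjusted p = 0.966). The deposited values, gave 0.00 at the high dose and 0.02 between the doses.

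Rpl13a, which in human cells also silences inflammatory transcripts, kept 13 values, 5 at the high dose and 4 in each other group. Its levels were 5.29 to 5.87 in controls, 5.47 to 6.07 in low-dose mice and 5.51 to 5.77 in high-dose mice. The ranges overlapped, with -0.02 ± 0.15 at the high dose (adjusted p = 0.990; above 0 with normexp and quantile normalisation), 0.18 ± 0.16 at the low dose (adjusted p = 0.738) and -0.19 ± 0.15 between the doses (adjusted p = 0.850). Rpl22, required for the development of T cells in mice, gave -0.17 ± 0.09 at the high dose (adjusted p = 0.760), -0.06 ± 0.09 at the low dose (adjusted p = 0.859; 0.28 with normexp) and -0.11 ± 0.09 between the doses (adjusted p = 0.859). Rpl39, a short protein at the exit tunnel, gave 0.02 ± 0.12 at the high dose (adjusted p = 0.981; -0.04 with the array median as scale), 0.10 ± 0.12 at the low dose (adjusted p = 0.826) and -0.07 ± 0.12 between the doses (adjusted p = 0.942).

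At the high dose 4 of the 42 large-subunit genes did not lie lower than control, against 12 at the low dose. Rpl30, a protein at the interface of the subunits, was highest at the high dose, with levels of 4.33 to 5.06 around 4.73 against 4.03 to 4.83 around 4.30 in controls. The groups overlapped, and its log2 fold change was 0.29 ± 0.24 (adjusted p = 0.846), or -0.13 with array brightness as a covariate. Low dose against control gave 0.11 ± 0.24 (adjusted p = 0.909), where mouse 5 at 3.26 lay far under the other 5, and high dose against low dose gave 0.17 ± 0.24 (adjusted p = 0.933). Rpl21 gave 0.27 ± 0.23 at the high dose (adjusted p = 0.846) and 0.23 ± 0.23 at the low dose (adjusted p = 0.776). Rpl14, at -0.03 ± 0.35 at the high dose (adjusted p = 0.992), had the highest low-dose value, 0.50 ± 0.35 (adjusted p = 0.640), and differed by -0.52 ± 0.35 between the doses (adjusted p = 0.807). Rpl14 and Rpl21 were dim for this family, and with Rps19 and Rpl30 they had the 4 widest standard errors of the 79 genes.

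Rpl7a, near the exit tunnel, was saturated on all 18 arrays, so no fold is given for its brightest probe. Its other probes were saturated on none: 1 gave -0.21 ± 0.09 at the high dose and -0.18 ± 0.09 at the low dose, and 1 gave 0.22 ± 0.28 at both. Between the doses, Rpl10, the last protein to join the large subunit, gave -0.23 ± 0.12 (adjusted p = 0.709), Rpl36a gave -0.19 ± 0.10 (adjusted p = 0.719), Rpl26 gave -0.14 ± 0.09 (adjusted p = 0.786) and Rpl18 gave -0.24 ± 0.16 (adjusted p = 0.805). The probe used for Rpl10 is annotated to chromosome 13, whereas RefSeq places the gene on chromosome X, and that for Rpl15 to chromosome 12, whereas the gene is on 14. Ribosomal protein genes have many processed copies in the genome, and the share of such copies in a signal was not tested.

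The stalk proteins recruit elongation factors to the ribosome, with Rplp0 as the base to which Rplp1 and Rplp2 bind. Rplp0 had 8 to 10 usable spots on each array, whose SD within an array was 0.02 to 0.06, well under the spread between mice. Its levels were 4.25, 3.88, 4.05, 3.93, 4.05 and 4.54 in high-dose mice 1 to 6, and 4.76, 4.32, 4.37, 4.58, 4.32 and 4.41 in control mice 1 to 6. High-dose mouse 6 lay among the controls and the other 5 lay below all of them. The log2 fold change was -0.34 ± 0.12 (adjusted p = 0.680). It was -0.21 with normexp background and -0.16 with array brightness as a covariate. For low-dose livers, with levels of 4.12, 4.23, 4.04, 4.37, 4.32 and 4.05 in mice 1 to 6, it was -0.27 ± 0.12 (adjusted p = 0.367), and 0.09 with normexp. With the brightness covariate it was -0.08 at the low dose. Between the doses it was -0.07 ± 0.12 (adjusted p = 0.942), and 0.07 under updated gene names.

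Rplp1 was saturated on all 6 high-dose arrays, all 6 low-dose arrays and 3 controls, so it gets no fold. Its capped levels ran from 7.86 to 8.40 in controls, from 7.65 to 8.25 in low-dose mice and from 7.51 to 8.05 in high-dose mice, with overlap (adjusted p = 0.686 for high dose and 0.279 for low dose against control). Rplp2, saturated on 1 low-dose and 1 control array, gave -0.10 ± 0.11 at the high dose (adjusted p = 0.885; 0.08 with normexp), -0.07 ± 0.11 at the low dose (adjusted p = 0.866; above 0 with normexp, quantile normalisation and the deposited values) and -0.03 ± 0.11 between the doses (adjusted p = 0.977).

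Rps27l, a paralogue of Rps27 that p53 induces, gave -0.16 ± 0.08 at the high dose (adjusted p = 0.760), -0.08 ± 0.08 at the low dose (adjusted p = 0.791; 0.28 with normexp) and -0.08 ± 0.08 between the doses (adjusted p = 0.905). Rps19bp1 differed by -0.21 ± 0.11 between the doses (adjusted p = 0.726). Leaving out these names and Rpl36al moved the high-dose median of the family only in the third decimal.

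The array carries 126 measured probes for the 79 genes. Tested one by one over all 25439 probes, 113 of 126 were below 0 at the high dose, with a median of -0.15, and none had an adjusted p under 0.05 (smallest 0.575). For 33 genes with several probes that were saturated on no array, all such probes of a gene were lower in 23 at the high dose. Saturated probes of these genes were left out of that count. In that set the low dose gave 12. The median range between these unsaturated probes of a gene was 0.13 at the high dose.

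The genes varied together between mice of the same group. After group means were removed, the mean correlation between 2 of the 68 genes with complete values was 0.40 over 18 arrays, against 0.01 between all genes with complete values (n = 16807) and 0.10 between the other genes among the brightest 10%. All these pairs share the same arrays and their scaling, and the values describe these 18 livers. Of 2278 pairs, 2048 were above 0, and the first principal component held 34.9% of the variance. Rpl32, at 0.94, followed the mean of the other genes most closely, then Rps9 at 0.93, while Rpl4, Rpl21 and Rpl30 had values below 0. These correlations were close to 0, at -0.02 for Rpl4, -0.03 for Rpl21 and -0.05 for Rpl30. Of the 3 genes, Rpl30 and Rpl21 had the highest high-dose values of the family, whereas Rpl4 lay at -0.20. Because the genes move together, the 79 values are far from independent, and a count such as 75 of 79 rests on the same 12 mice throughout.

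Brightness moved with the result. Of 79 genes, 73 were among the brightest 10% of all genes, and the other genes of that class had a median log2 fold change of -0.07 at the high dose and -0.05 at the low dose. At the high dose the medians of the other genes, in 10 brightness classes of equal size, ran from 0.09 in the dimmest class to -0.07 in the brightest. The ribosomal protein genes had a median of -0.15, but many of them stand at the bright end of that class, so the classes do not match them in brightness. The 29 genes saturated on all arrays had medians of -0.34 at the high dose and -0.37 at the low dose. With the log2 75th percentile of each array as a covariate, the family's median was -0.06 at the high dose, with 57 of 79 lower, and 0.01 at the low dose. Brightness differed between groups, so its part in the result was not tested beyond this fit.

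**Figure D4:**
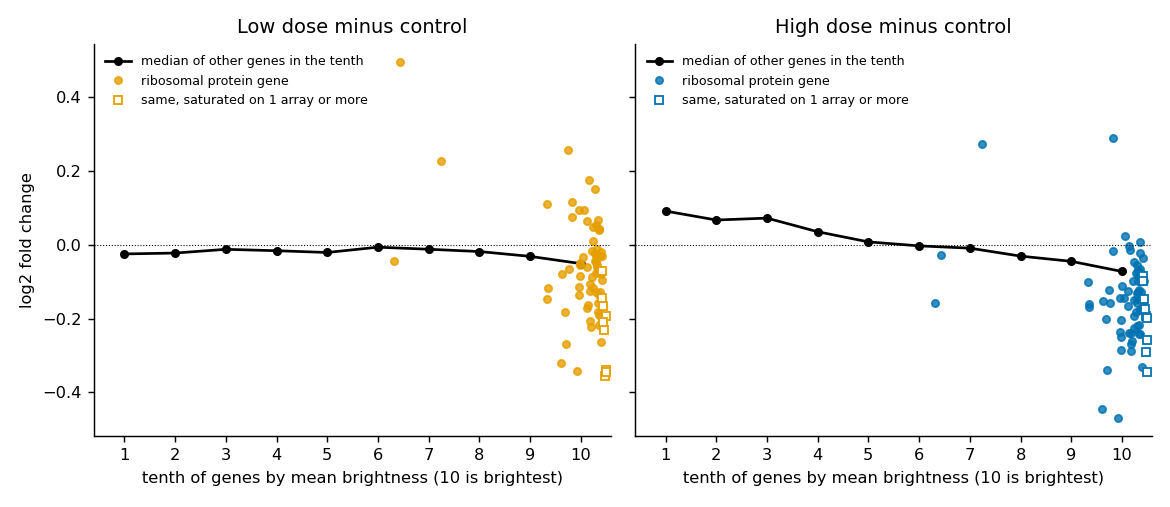
Log2 fold change against brightness class (x axis, 10 classes of equal gene number) at the low dose (left) and the high dose (right) against control. Coloured points are 78 of the ribosomal protein genes, most of them in the brightest class (open squares: saturated on at least 1 array), and black points are medians of the other genes, which run from 0.09 to -0.07 at the high dose.

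Other genes of the translation apparatus were measured in lists chosen by name. The lists overlap, so their counts are not separate. Elongation factor genes such as Eef1b2 and Eef2 count both as translation factors and as other TOP transcripts. At the high dose 19 of 24 translation factors were below 0 (median -0.08), led by Eef1e1, a scaffold of the aminoacyl-tRNA synthetases, at -0.45 (adjusted p = 0.655). Of 16 other TOP transcripts 13 were (median -0.08), with Eef1b2, an elongation factor subunit, at -0.21 (adjusted p = 0.774). Of 44 genes of ribosome biogenesis 26 were (median -0.03), and of 25 genes of mTOR, S6 kinase and Myc control 18 were (median -0.07). Of 75 mitochondrial ribosomal protein genes 51 were below 0 (median -0.06), with Mrpl12 at -0.38 (adjusted p = 0.655) from only 3 high-dose and 5 control values. The relatives left out by the rule had 4 of 9 below 0 and a median of 0.00. No member of these lists had an adjusted p under 0.05 at either dose. Of all genes tested, 50.9% were below 0 at the high dose. The other genes among the brightest 10% had a median of -0.07 there. The lists were not matched to other genes in brightness, and their values under other processing are not given.

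In low-dose livers, mitochondrial ribosomal protein genes had 50 of 75 above 0, with a median of 0.04, while 61 of 79 cytosolic ones were below 0. The cytosolic direction turned with normexp background, and the sets were not matched in brightness, so this is not read as an opposite response. Translation factors had 16 of 24 below 0 (median -0.06), with Eif2s1, a subunit of initiation factor 2, at 0.34 (adjusted p = 0.0958). Biogenesis genes had 26 of 44 below 0 (median -0.07), with Bysl, needed for small-subunit assembly, at 0.53 (adjusted p = 0.143). Of 16 other TOP transcripts, which share genes with the translation factors, 10 were below 0 (median -0.04), and of 25 control genes 15 were (median -0.05). Of all genes tested, 54.4% were below 0 at the low dose. Between the doses, 57 of 75 mitochondrial ribosomal protein genes were lower at the high dose (median -0.07), against 45.3% of all genes.

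Markers of other cell types were measured beside these genes, at the high dose against control. The B cell and antigen presentation list had 8 of 8 above 0 (median 0.69), with a mean level per mouse of -1.84 to -0.77 at the high dose and -2.65 to -1.50 in controls. Of 8 markers of Kupffer cells and macrophages 7 were above 0 (median 0.38), with -0.28 for the remaining one and mean levels of 1.53 to 3.40 at the high dose and 1.16 to 2.85 in controls. Of 8 hepatocyte markers 7 were below 0 (median -0.19), 2 of the 8 saturated. Neutrophil markers had a median of 0.59 (3 of 3 above 0). Their mean level per mouse ran from -3.45 to 2.76 at the high dose, on both sides of the controls (-2.70 to -1.85). Of the other lists, cholangiocyte markers had a median of 0.25 (4 of 5 above 0) and T cell -0.01 (2 of 5). Endothelium had -0.02 (2 of 6), stellate cell -0.04 (3 of 7) and erythroid -0.12 (1 of 4). The lists differ in brightness, with hepatocyte markers at mean levels of 5.85 to 6.21 per high-dose mouse. Medians of the other genes by brightness class ran from 0.09 in the dimmest to -0.07 in the brightest. The lists were not matched for this, so their directions are not read as a change in cell types. No marker had an adjusted p under 0.05, and the part of cell composition in the ribosomal protein values was not tested.

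Within slides, which hold 1 or 2 mice of a group, the family's median at the high dose against control was -0.11, -0.19, -0.06 and -0.23 on slides 2 to 5, below 0 on all 4. At the low dose it was 0.17, 0.01, -0.16 and -0.17, above 0 on 2 of 4. High dose against low dose gave -0.13, -0.23, -0.22, 0.12 and -0.06 on slides 1 to 5. With slide as a block the medians were -0.10 at the high dose and -0.03 at the low dose. Rpsa, Rpl29 and Rplp0 lay below controls on all 4 slides at both doses, though Rplp0 was at only -0.03 on slide 4 at the high dose. These genes were among the smallest p at the high dose on the same arrays, so the slides are no separate support. The share of all genes with such signs was not counted.

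**Figure D5:**
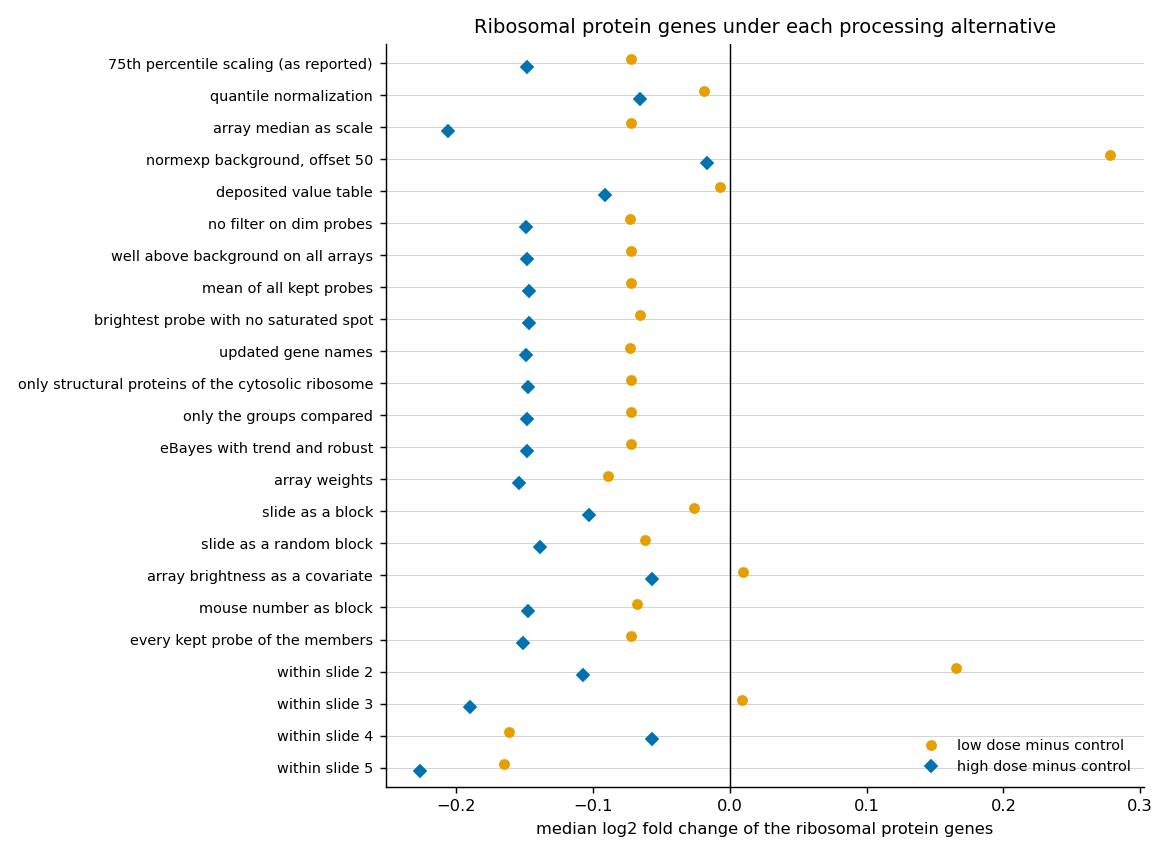
Median log2 fold change of the ribosomal protein genes (x axis) at the low dose (circles) and the high dose (diamonds) against control under each alternative (y axis). The high-dose median lies below 0 in all of those drawn, from -0.23 to -0.02, and the low-dose median crosses 0, from -0.17 to 0.28.

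The size of the difference varied with the processing. The high-dose median was -0.07 with quantile normalisation, -0.21 with the array median as scale, -0.09 in the deposited value table and -0.02 with normexp, where 44 of 79 genes were lower. The low-dose median was -0.02, -0.07, -0.01 and 0.28 in the same settings.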

How the data were processed

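Intensities are the spot signals of the deposited scanner files, which per the file headers were background-subtracted and detrended by Agilent Feature Extraction 9.5 and not scaled between arrays. The deposited value table holds log2 values whose steps are not given in the sources used here beyond the tools named in the submitters' processing notes (Feature Extraction and limma); its column medians ran from 7.91 to 7.94 and it was used as an alternative. Signals were taken to log2 minus the 75th percentile of each array, flagged outlier spots were dropped, and repeated spots were averaged. Probes well above background on at least 6 of 18 arrays were kept (25439 of 41174), and the brightest stood for each deposited gene name. Differences were tested with limma 3.58.1 in R 4.3.3 over all 18 arrays with group as the only term, and Benjamini-Hochberg adjustment over 17280 genes at 0.05. In data simulated for high dose against control (16807 genes), changes of 0.5, 1 and 2 on the log2 scale were called for 29.9%, 62.7% and 89.4% of changed genes. Slides were inferred from shared scan times in the file headers. Named genes were 16 members named in every comparison (Rpl3l was not measured), and in each the 6 of smallest p and the 3 highest and 3 lowest; 1 gene that this rule names is not reported here, though it stays in the counts. Members, lists and rules were chosen with earlier results of these data known. The labels describe separate mice, and 6 per group limit the precision. Array intensities have no read depth.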

Additional observations from a re-analysis of the deposited data

Results flagged for a closer look

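Dixon's gap test was run on 84 groups of 6 or fewer mice, over 28 named genes where enough values remained and over the family's median per mouse. Of these groups, 8 held a mouse far from the others, and chance alone flags about 1 in 20. No group was flagged for the family's median. High-dose mouse 3 was highest for Rpl14 at 1.77, with the next mouse at 0.28, and for Rpl10 at 6.56, with the next at 6.29. High-dose mouse 6 was highest for Rplp2 at 7.73, with the next at 7.38. Low-dose mouse 5 was lowest for Rps4x at 5.86, with the next at 6.68, and for Rpl30 at 3.26, with the next at 4.71. Low-dose mouse 2 was highest for Rps19bp1 at 4.02, with the next at 3.65. Control mouse 6 was lowest for Rps4x at 6.58, with the next at 6.89, and for Rpl26 at 6.27, with the next at 6.43.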

How the results depend on the processing

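No ribosomal protein gene had an adjusted p under 0.05 in any comparison under any alternative run. With normexp background the family's median was 0.28 for low dose against control, -0.016 for high dose against control and -0.27 for high dose against low dose. Within slide 2 the low-dose median was 0.17, and for high dose against low dose it was -0.23 within slide 2, -0.22 within slide 3 and 0.12 within slide 4. Leaving out 1 array at a time gave medians of -0.12 to -0.05 for low dose against control, -0.19 to -0.12 for high dose against control and -0.12 to -0.04 for high dose against low dose, with 0 to 0 genes past the threshold in each. The mouse numbers do not pair the samples: same-numbered mice of different groups had correlations of -0.31 to 0.35, with a mean of 0.03. With the mouse number as a replicate block the medians were -0.07 for low dose, -0.15 for high dose against control and -0.07 between the doses, and all-gene calls were 5, 0 and 0 against 45, 0 and 5 without it. Every kept probe of the genes, an alternative added after the data were seen, gave -0.07, -0.15 and -0.07. For the named genes, 36 of 663 values at the high dose turned sign against the main one, as did 33 of 768 at the low dose and 37 of 838 between the doses, over all alternatives including left-out arrays.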
